A study of Mus musculus with 2 samples.

Results

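The genes described here are the cytosolic translation factors and the cytosolic aminoacyl-tRNA synthetases on a mouse expression array. They were found by name: a gene name in the scanner files that begins with Eif1 to Eif6, Eef1 or Eef2, or that is one of 20 cytosolic tRNA synthetases. The rule took 85 of 34793 gene names, and 128 of 55669 probes. It used no measured value. Among the 85 are 4 genes under old names, Eif2c1 to Eif2c4, whose current symbols are Ago1 to Ago4. These encode Argonaute proteins, which carry small RNAs and are no initiation factors, so counts are given with and without them.

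Microglia are the macrophages that live in the tissue of the brain and spinal cord. Spinal cord microglia had been sorted from 2 kinds of mice: controls, titled normal microglia, and an atopic diathesis model, titled activated microglia. Atopic diathesis means a disposition to allergic disease. RNA of 1 sample of each kind was amplified, labelled with Cy3 and hybridised to 1 array. Strain, age, sex, the making of the model, the sorting markers and the number of mice behind a sample are not given in the sources used here. Both arrays lie on 1 slide, and where an array sat on it cannot be told apart from its group.

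Translation starts when eIF2 brings the initiator tRNA to the small ribosomal subunit, helped by eIF1, eIF1A, eIF3 and eIF5, while the eIF4 factors bind the mRNA cap and unwind the leader. Stress kinases phosphorylate eIF2 and thereby block eIF2B, which reloads eIF2 with GTP. The eIF4E-binding proteins hold back the cap-binding factor. eEF1 and eEF2 then drive elongation, and the synthetases load each tRNA with its amino acid.

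A processed signal is the background-subtracted fluorescence of a probe, without a unit. A gene with at least 1 probe that was itself well above background on both arrays is called measured, and there were 9204 of these. Its difference is the log2 signal in atopic diathesis minus that in control, minus the median of that difference over the 9204 genes, which was -0.03 before it was subtracted. A gene was called higher or lower where this difference reached 1 in size, that is 2-fold from the median measured gene, and within 2-fold otherwise. Every fold and log2 difference given for a gene or a probe is relative to that median gene, unless another setting is named. Values under another filter, probe rule or background correction are relative to the median gene of that setting. Each kind of mouse has 1 array, so differences lack a replicate check, none was tested, and the values describe these 2 samples. Spots of one probe printed repeatedly gave a 95% interval of ±0.40 for a log2 difference (101 probes), ±0.53 among the dimmer probes and ±0.19 among the brighter ones. These intervals cover spot error only. The well-above-background probes numbered 13429 (24.1%) in control and 15385 (27.6%) in atopic diathesis, and no spot was saturated.

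The sorted cells carried the microglial markers: 14 of 14 were well above background on both arrays, and their signals summed to 186413 (control) and 167212 (atopic diathesis). Of 35 markers of other cell types, 8 were above background in control and 11 in atopic diathesis. Oligodendrocyte markers summed to 1057 and 1028, with 4 and 5 of 6 above background. Astrocyte markers summed to 808 and 1022, with 2 and 3 of 6 above background. The neuronal gene Snap25 gave 82155 and 84015, but none of the other 5 neuron markers was above background on either array. Endothelial markers summed to 344 and 145, with Flt1 seen in control only (328 and 5.07) and Pecam1 in atopic diathesis only (5.64 and 127). Blood leukocyte markers summed to 36.5 and 106, of which Mcpt4 was seen in atopic diathesis only (5.02 and 56.5). Border macrophage markers were at background throughout (0 of 4 on both arrays). The part of other cell types in the results was not tested, and in such RNA fewer cells of a type and less RNA per cell cannot be told apart.

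Because several members turn on which probe is read, the probes that carry the differences are shown first. Each line gives the first 30 bases of a 60-base probe as deposited, in lower case, with no part marked. The 3 Eef2k probes all fell, but by unequal amounts. The probes shown for Eif4e, Eif2s2, Eif5, Eif2s3x and Eif3c differed in direction or size. Probes of these genes at background on both arrays are not shown. Coordinates are those of the deposited files, on build mm9, and the exon or UTR in which a probe lies was not looked up here.
Eef2k, chr7:128038721-128038780, plus strand: aggctttgattacttactgaaggcggcaga
Eef2k, chr7:128043027-128046821, plus strand: ggatttggactggacaagaacccccaaaga
Eef2k, chr7:128050093-128050152, plus strand: acaagctttatgagtgtaaaaaagaaacat
Eif4e, chr3:138189716-138189775, plus strand: gccgcctctttcagaaaccaagagaaaatg
Eif4e, chr3:138219236-138219295, plus strand: caccataattacattcctaactagaattag
Eif2s2, chr2:154698193-154698252, minus strand: gatgggggtaaggaggtactttttaaaatc
Eif2s2, chr2:154697153-154697212, minus strand: atgatgcccaatgttggctataactgcgtg
Eif5, chr12:112778375-112778434, plus strand: acagacccagtttgatgttaagaatgaccg
Eif5, chr12:112784725-112784784, plus strand: cgttgctctattgaggtgtcataaagtttc
Eif2s3x, chrX:91436226-91441634, minus strand: cagaagagttgagaaacactggcgtttaat
Eif2s3x, chrX:91435083-91435142, minus strand: gaacaataccaccaataaggggtctctgct
Eif3c, chr7:133707950-133708009, minus strand: ccaagagtattgtggataaggaaggtgtcc
Eif3c, chr7:133690426-133690485, minus strand: cagaccatctagccttttgctcctaactca
Probes are listed in order along the transcribed strand. The second Eef2k probe and the first Eif2s3x probe span far more genome than their length.

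Promoters are shown for the measured members that hold a CARE, the C/EBP-ATF response element, which is bound by Atf4 when eIF2 is phosphorylated and is known from amino acid response genes, synthetases among them. Sequences are RefSeq's for GRCm38.p6, with the motif in capitals as it reads on the gene's strand. All 5 hold it as its reverse complement.
Iars, chr13:49682113-49682154, plus strand: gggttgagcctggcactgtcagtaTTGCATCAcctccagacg
Gars, chr6:55037947-55038002, plus strand: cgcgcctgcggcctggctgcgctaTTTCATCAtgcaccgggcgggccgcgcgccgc
Aars, chr8:111033706-111033761, plus strand: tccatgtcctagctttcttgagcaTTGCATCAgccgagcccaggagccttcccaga
Eif2s3x, chrX:94212716-94212771, minus strand: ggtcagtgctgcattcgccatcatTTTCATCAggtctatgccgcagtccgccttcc
Eef2k, chr7:120851081-120851136, plus strand: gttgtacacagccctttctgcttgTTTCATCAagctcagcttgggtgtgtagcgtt
Aars holds a second one nearer its start site. Eef2k also has a promoter near chr7:120842776, which does not hold the element, and which of its promoters was in use here was not tested. What these genes did on the arrays is given after the single factors.

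Of the 85 members, 54 were measured on both arrays. In atopic diathesis 8 were higher, 12 were lower and 34 lay within 2-fold. Over all measured genes 17.3% were higher and 15.6% lower, against 14.8% and 22.2% of the 54 members. The members' median difference was -0.10 with quartiles of -0.69 and 0.58, and 23 members lay above the median gene and 31 below it. All measured genes had quartiles of -0.57 and 0.63. Without the Argonautes 52 members were measured, of which 8 were higher and 10 lower, with a median of -0.08. The members thus had no common direction, and ranged from -2.76 (Eef2k) to 2.14 (Eif2s1). The pooled spot interval of ±0.40, applied to dim and bright genes alike, left 16 of the 20 called members past 2-fold over its whole length. These were 6 of the higher and 10 of the lower. For 13 of 54 members the interval held the median gene. Dimmer probes had a wider interval (±0.53), and none of these intervals covers differences between probes of a gene. The 16 include Eif5 and Eif2s3x, whose own probes lay much farther apart. The counts rest on the filter for dim probes, the scaling and the background step. Taking probes well above background on at least 1 array gave a value to 69 members, 21 higher and 14 lower, with a median of 0.16. By construction the 11 members seen in atopic diathesis only then enter through their signal on that array. No filter gave a value to all 85, 26 higher and 13 lower, with a median of 0.26. Of all called genes 57.1% and 64.6% were higher in these settings, against 52.6% in the main one. Scaled to the 75th percentile of all probes, which falls among dim probes, 4 members were higher and 21 lower. Of all 9204 measured genes 987 were then higher and 2501 lower. Without background correction 1 member was higher and 8 lower, against 900 and 882 of all measured genes. Of the 8 higher members Eif3g kept its call without background correction, and Eif2s1, Eif2s3x, Eif3g and Iars kept it with normexp, a model-based correction. Of the 12 lower members all but Eif2c1, Eif2s2, Eif3a and Gars kept their call in both of these settings.

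**Figure D1:**
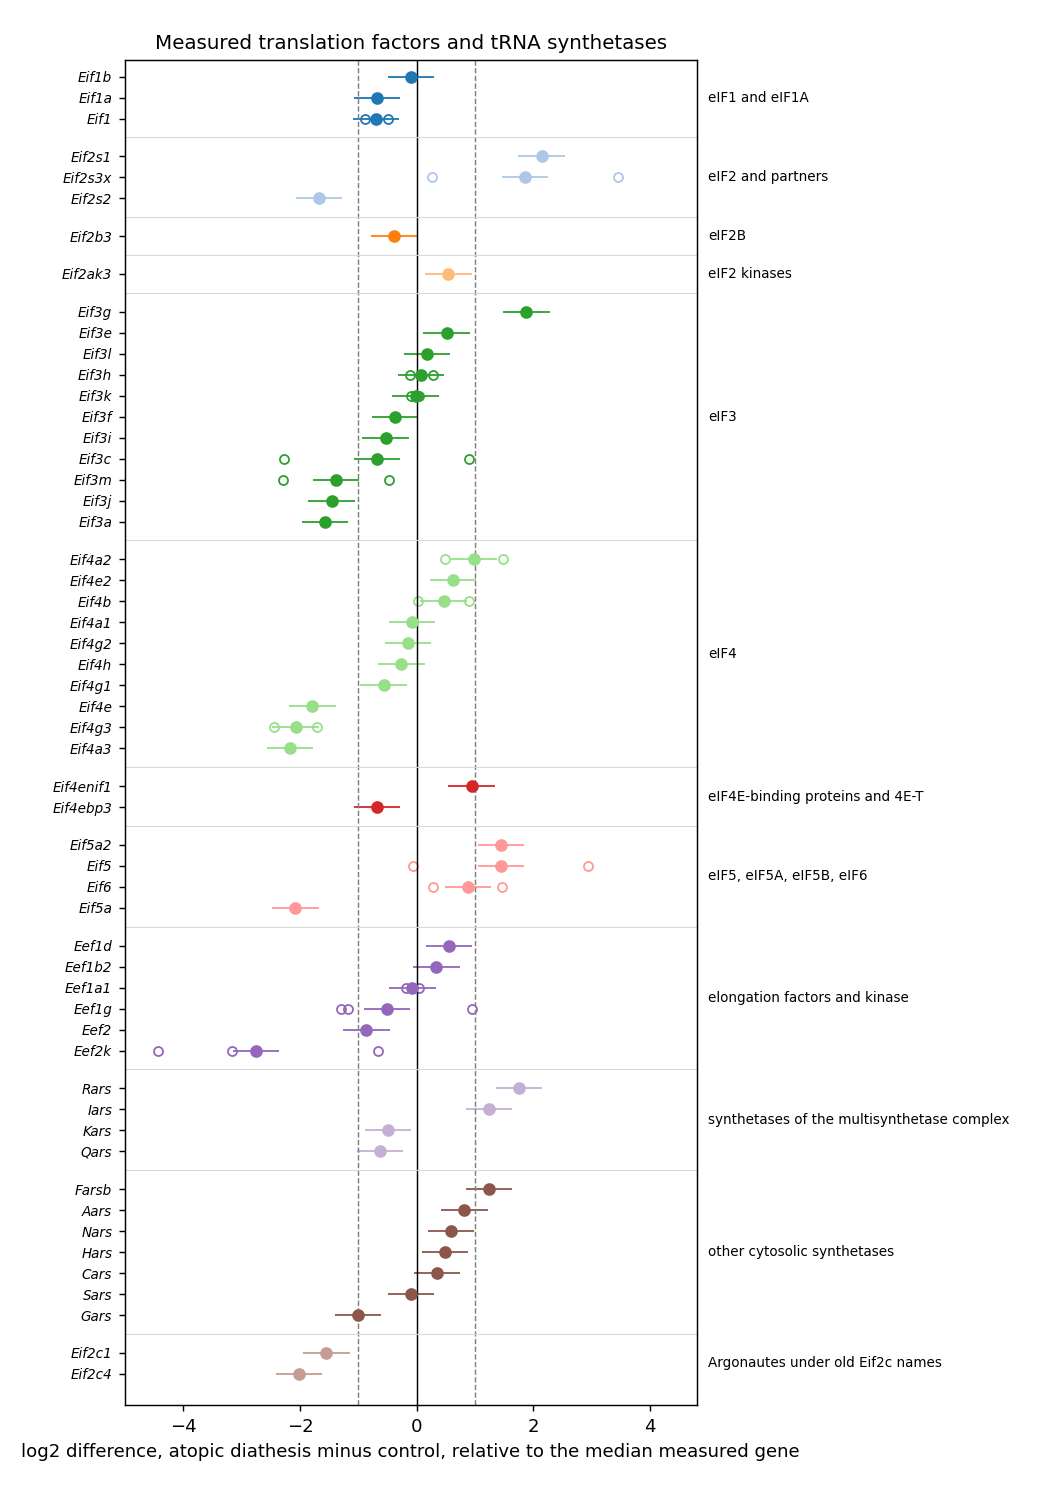
Log2 difference, atopic diathesis minus control, relative to the median measured gene, for the 54 measured members grouped by role. Filled points are genes with the 95% spot interval of ±0.40, open points the single probes of genes with at least 2 measured probes, and dashed lines mark 2-fold; members lie on both sides in most groups, from -2.76 (Eef2k) to 2.14 (Eif2s1).

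The 3 core subunits of eIF2, the carrier of the initiator tRNA, were all past 2-fold, 2 higher and 1 lower. Eif2s1, the alpha subunit that stress kinases phosphorylate, gave 29.9 in control and 129 in atopic diathesis. It was higher by 4.41-fold, a log2 difference of 2.14. With normexp it came to 1.06 and without background correction to 0.94, below Eif3g at 1.46 and 1.34. The other Eif2s1 probe was at background on both arrays (4.67 and 4.71), and with no background filter Eif2s1 came to 1.02. Eif2s2, the beta subunit, gave 158 in control and 48.6 in atopic diathesis. It was lower by 3.18-fold (log2 difference -1.67), but its other probe, well above background in atopic diathesis only, gave 4.54 and 45.6 and went the opposite way. With that probe in the mean Eif2s2 turned to 0.66, and with no background filter to 0.77. Eif2s3x, the gamma subunit that binds GTP, gave mean signals of 177 and 627 over its measured probes, a log2 difference of 1.86. One of the pair barely moved (1146 and 1346, difference 0.26), and the rise lay at the other (27.3 and 292, difference 3.45). The measured probes of Eif2s1 and Eif2s2 each share at least 25 bases with a probe of another name on the array. Eif2a and Eif2d, which deliver initiator tRNA without eIF2, stayed at background on both arrays.

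eIF2B, the exchange factor that recharges eIF2, had 1 of its 5 genes measured on both arrays. Eif2b3 was measured, at 28.4 in control and 21.2 in atopic diathesis, a difference of -0.39 that lay inside the interval of the dimmer probes. Eif2b2 and Eif2b4 were well above background in atopic diathesis only, with 5.19 against 176 and 8.52 against 54.9. Their rises were at least 9.09-fold and at least 2.84-fold. A bound of this kind sets the bright signal against the lowest signal well above background on the dim array, or the dim probe's own where that is higher. Eif2b1 and Eif2b5 were above background on neither array.

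Among the 4 kinases that phosphorylate eIF2, none was higher at 2-fold. Eif2ak3 (PERK), which senses unfolded protein in the endoplasmic reticulum, gave 140 in control and 200.03 in atopic diathesis, a difference of 0.54. Eif2ak4 (GCN2), the sensor of uncharged tRNA, was well above background in control only: its brightest probe gave 412 in control and 4.75 in atopic diathesis, lower by at least 20.3-fold. A second Eif2ak4 probe went the same way (90.5 and 5.13), and the remaining one was at background on both arrays. Eif2ak1 (HRI), the haem-regulated kinase, gave 48.0 and 8.12 and was lower by at least 2.36-fold. Eif2ak2 (PKR), which binds double-stranded RNA, was above background on neither array.

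eIF1 and eIF1A, which help the ribosome scan for the start codon, lay within 2-fold where measured. Eif1b gave 1038 in control and 950 in atopic diathesis, a difference of -0.09. Eif1 gave 821 and 497 (difference -0.69), with both probes on the same side, and Eif1a gave 113 and 68.7 (difference -0.68). The 2 other genes of this group were seen in atopic diathesis only. Eif1ad, which encodes a protein with an eIF1A-like domain, gave 11.9 in control and 611 in atopic diathesis, at least 31.6-fold higher. Its other probe moved alike (7.53 and 255). Eif1ax gave 6.71 and 67.7, at least 3.50-fold higher.

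eIF3 is the large scaffold that joins the small subunit to the mRNA, and 11 of its 13 genes were measured: 1 higher, 3 lower and 7 within 2-fold, with a median of -0.37. Eif3g, a subunit with an RNA-binding domain, gave 117 in control and 422 in atopic diathesis, a 3.68-fold rise (log2 difference 1.88). Eif3a, the largest subunit, gave 112 and 36.8 at its 1 probe, a 2.98-fold fall. Its log2 difference was -0.87 with normexp and -0.75 without background correction. Eif3j, a loosely bound subunit, gave 493 and 176 at its 1 measured probe, a 2.74-fold fall. Another Eif3j probe, seen in control only, went the same way (24.6 and 15.4). The remaining one was well above background on neither array (5.87 and 20.3), and with no background filter Eif3j came to -0.17. Eif3m gave 666 and 250, with a difference of -1.38 that averages -2.29 and -0.47 at its probes. Both Eif3k and Eif3h stayed near the median gene: Eif3k gave 1076 and 1038 (difference -0.02, with its 3 probes between -0.10 and 0.05) and Eif3h 803 and 827 (difference 0.08). Eif3c had a mean of -0.68 that hides opposite probes, 176 and 35.7 at one (difference -2.26) and 388 and 709 at the other (0.90). The remaining measured subunits were Eif3e (0.52), Eif3l (0.18), Eif3f (-0.37) and Eif3i (-0.53). Eif3d, which can itself bind a cap, was seen in atopic diathesis only (16.9 and 189, at least 9.80-fold higher), and Eif3b, a core subunit, on neither array.

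Within eIF4, the cap-binding and helicase group, 3 of 10 measured genes were lower and none was higher. Eif4e, the cap-binding protein, gave 4471 in control and 1266 in atopic diathesis, a 3.45-fold fall (log2 difference -1.79). A second Eif4e probe went the opposite way, from 20.9 in control, where it was not well above background, to 145 in atopic diathesis. With probes well above background on at least 1 array, which takes this one into the mean, Eif4e turned to 0.34. The remaining Eif4e probe was at background on both arrays (4.86 and 5.11). Eif4g3, a scaffold that bridges cap and ribosome, gave mean signals of 265 and 61.6 with both measured probes down (-1.70 and -2.44). Its other probes were at background on both arrays (4.07 and 10.9, 4.44 and 7.89), and with no background filter Eif4g3 came to -0.54. Eif4a3, a helicase that sits in the exon junction complex and is not part of the cap-binding complex, gave 665 and 144, a 4.50-fold fall. Its close relatives that do unwind leaders lay within 2-fold: Eif4a1 gave 2254 and 2091 (difference -0.08), and Eif4a2 gave 1000.3 and 1933 (0.98). Its probes differed, with 56.5 and 154 at one (difference 1.48) and 17701 and 24227 at the other (0.49). Eif4e2, a cap-binding homologue tied to repression, gave 1907 and 2867 (difference 0.62), and another of its probes, seen in atopic diathesis only, gave 3.94 and 95.6. With that probe in the mean Eif4e2 would count as higher, at 2.44. Eif4g1, the main scaffold, gave 881 and 582 (difference -0.57). Eif4b (0.46) also had a probe seen in atopic diathesis only (8.36 and 61.2), with which its mean was 1.09. The other measured genes were Eif4g2 (-0.15) and Eif4h (-0.26). Eif4e3 was seen in atopic diathesis only, at 4.58 and 117, at least 6.03-fold higher. Eif4e1b, known from oocytes, was seen on neither array.

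Of the proteins that bind and hold back eIF4E, 2 were measured, both within 2-fold. Eif4enif1 (4E-T), which carries eIF4E into the nucleus and into processing bodies, gave 241 in control and 453 in atopic diathesis, a difference of 0.94. Eif4ebp3 gave 104 and 63.7 (difference -0.68). Eif4ebp1 was well above background in control only, at 31.7 against 10.5, lower by at least 1.56-fold, a bound that leaves its size relative to 2-fold unknown. Eif4ebp2 was at background on both arrays.

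Late initiation and the eIF5A pair parted. Eif5a, whose hypusine-bearing product helps ribosomes over stalling sequences, gave 1698 in control and 393 in atopic diathesis, a 4.22-fold fall. Eif5a2, its less widely expressed relative, gave 78.1 and 208, a 2.72-fold rise. Each rests on 1 probe. Eif5, which makes eIF2 hydrolyse GTP at the start codon, had a mean difference of 1.44 from mean signals of 288 and 764. One Eif5 probe did not move (1952 and 1837, difference -0.06) and the other rose (42.4 and 317, difference 2.94), so the call holds for the mean and for one of the probes. Eif6, which keeps the large subunit from joining early, gave 38.3 and 68.6 (difference 0.88). Eif5b, which joins the subunits, was seen on neither array.

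**Figure D2:**
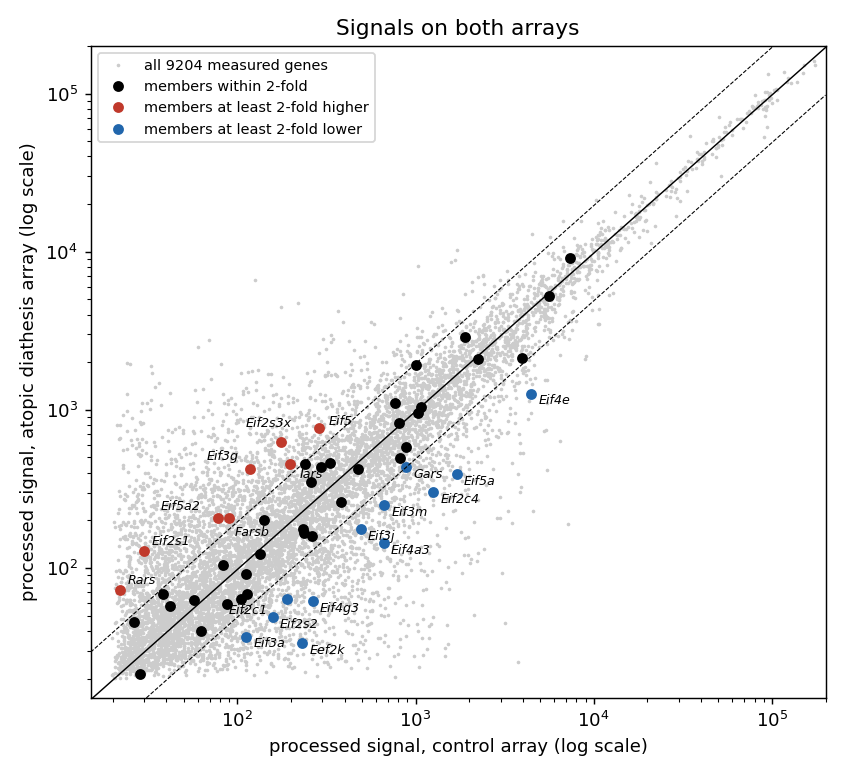
Processed signal of each measured gene on the control array (x) and on the atopic diathesis array (y), both on log scales; grey points are all 9204 measured genes, and the solid and dashed lines mark the median gene and 2-fold from it. Coloured points are the 8 higher and 12 lower members, black points the other 34; Eif4e, at 4471 and 1266, lies below the lower dashed line.

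Elongation factors mostly stayed within 2-fold, and their regulator did not. Eef2k, the kinase that phosphorylates and inactivates eEF2, gave a mean of 232 on the control array and of 33.5 in atopic diathesis. It was lower by 6.75-fold (log2 difference -2.76), with all 3 probes below the median gene. Its difference was -1.76 with normexp and -1.60 without background correction, smaller falls than those of Eif5a at -1.96 and -1.94. In order along the strand the Eef2k probes gave 673 and 30.5, then 317 and 34.5, then 58.2 and 35.9, differences of -4.43, -3.17 and -0.66. Eef2, the translocase, gave 3946 and 2121 (difference -0.86). Eef1a1, which delivers charged tRNA, gave 5612 and 5212 (difference -0.07), and Eef1b2, a subunit of its exchange factor, gave 7332 and 9065 (0.34). Both measured Eef1a1 probes share at least 25 bases with probes of other names. Eef1d gave 771 and 1106 (difference 0.55). Eef1g, with a mean of -0.51, had probes on both sides, at -1.30, -1.17 and 0.95, of which the last shares at least 25 bases with a probe of another name, as do probes of Kars and Eif3h. Eef1e1, which despite its name is a scaffold of the multisynthetase complex, was seen in atopic diathesis only at 11.4 and 94.7, at least 4.90-fold higher. Eef1a2, the form of neurons and muscle, was seen on neither array.

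Of the 20 synthetases 11 were measured, of which 3 were higher and 1 lower. Their median was 0.49, with 7 above the median gene and 4 below it. In the multisynthetase complex, an assembly of synthetases and scaffold proteins, Iars, which loads isoleucine, gave 198 in control and 456 in atopic diathesis, a 2.36-fold rise. Rars, which loads arginine, gave 22.1 and 72.9, a 3.38-fold rise from a signal close to the lowest called well above background (19.8). Kars for lysine gave 238 and 166 (difference -0.49) and Qars for glutamine 62.8 and 39.8 (-0.63), so both lay below the median gene. A further 3 synthetases of the complex were seen in atopic diathesis only. Eprs for glutamate and proline gave 10.9 and 39.2, at least 2.03-fold higher. Lars for leucine gave 12.04 and 51.0, at least 2.64-fold, and Mars for methionine 15.6 and 54.3, at least 2.81-fold. Dars for aspartate, at 19.0 and 8.20, was well above background on neither array. The scaffold Aimp1 gave 48.2 and 113.6, a difference of 1.27, and Aimp2 was at background.

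Outside the complex 1 synthetase was higher and 1 lower. Farsb, the beta subunit for phenylalanine, gave 89.8 in control and 207 in atopic diathesis, a 2.36-fold rise. The alpha subunit, Farsa, had no probe above background on both arrays: one probe was seen in control only (25.9 and 4.51) and another in atopic diathesis only (4.31 and 46.6). Gars for glycine gave 884 and 432, a fall that only just met the threshold and stayed past it under 6 of 14 other settings. Gars was the measured member nearest the threshold from outside the 2-fold range and Eif4a2, at 0.98, the nearest from inside it. Within 2-fold lay Aars for alanine (26.4 and 45.6, difference 0.82), Nars for asparagine (295 and 433, 0.59), Hars for histidine (0.49), Cars for cysteine (0.35) and Sars for serine (-0.10). Tars, Vars, Wars and Yars were above background on neither array.

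The Argonautes are listed here because of their old names. Eif2c4 (Ago4) gave 1260 in control and 304 in atopic diathesis, a 4.06-fold fall, and its second probe, seen in control only, went the same way (114 and 10.9). Eif2c1 (Ago1) gave 190 and 63.5, a 2.92-fold fall, again with a second probe in control only (24.4 and 4.26). Eif2c2 (Ago2), the slicing member of the family, was seen in atopic diathesis only at one of its probes (12.8 and 116, at least 5.99-fold higher). Eif2c3 (Ago3) was at background on both arrays.

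Members seen on 1 array leaned to atopic diathesis: 11 were well above background there only and 3 in control only, with 1 more (Farsa) split between probes and 16 at background throughout. These are 12.9% and 3.53% of the members, against 8.06% and 4.15% of all gene names. The bases of these shares are unlike, as 18.8% of members but 61.1% of all gene names were at background on both arrays. The lean was not particular to the members: over the array 2806 gene names were seen in atopic diathesis only and 1443 in control only. All 11 of the first kind had a bound of at least 2-fold, against 59.2% of such genes over the array. Of the 3 in control only, Eif2ak4 and Eif2ak1 passed 2-fold and Eif4ebp1 did not, against 51.1% over the array. The array with more of these members was also the one with more probes above background, 15385 against 13429, and the part of that difference in the counts was not tested.

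**Figure D3:**
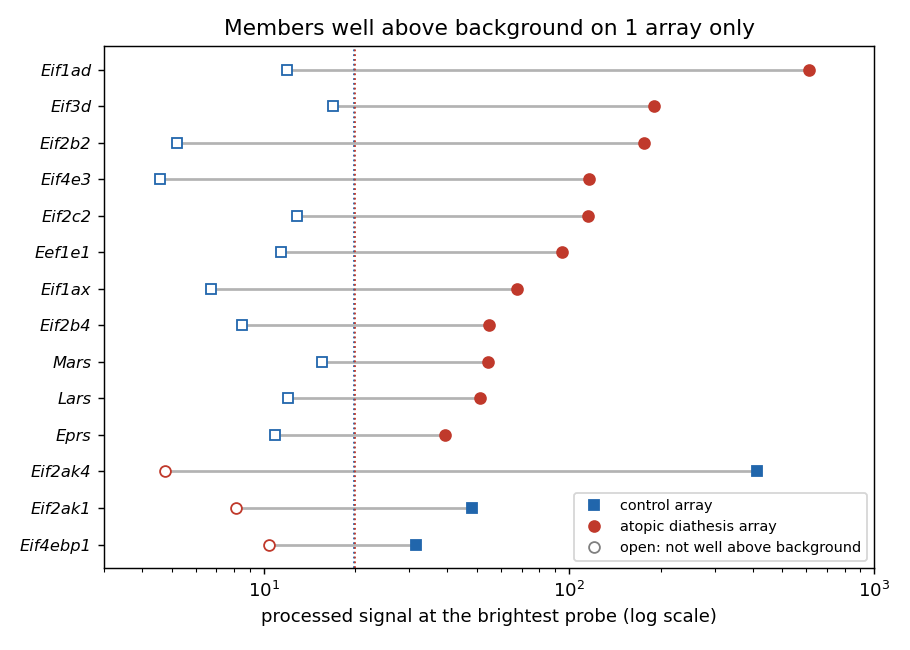
Processed signal, on a log scale, at the brightest probe of the 14 members well above background on 1 array only; squares are control, circles atopic diathesis, open symbols signals not well above background, and dotted lines the lowest signal called well above background on each array (19.8 and 19.9, nearly on top of each other). The widest gaps are Eif1ad (11.9 and 611) and, the other way, Eif2ak4 (412 and 4.75).

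The share past 2-fold varied with brightness, for members as for the array. In the brightest quintile of measured genes by mean signal, 15.3% of all genes and 1 of 10 members (Eif4e) passed 2-fold. In the next quintile 36.7% of all genes and 9 of 18 members did. The middle quintile held 46.5% and 4 of 9, the one below it 46.0% and 5 of 10, and the dimmest 20.2% and 1 of 7. In all 37.0% of measured members passed 2-fold against 32.9% of all measured genes, and the members' SD of 1.16 was below the 1.30 of all genes. Cytosolic ribosomal proteins, the other large class of translation genes, were steadier: 72 of 81 measured lay within 2-fold, 6 were higher and 3 lower, with a median of 0.11 and an SD of 0.65. Of these 81, 59 lay in the brightest quintile, where 4 (6.78%) passed 2-fold.

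**Figure D4:**
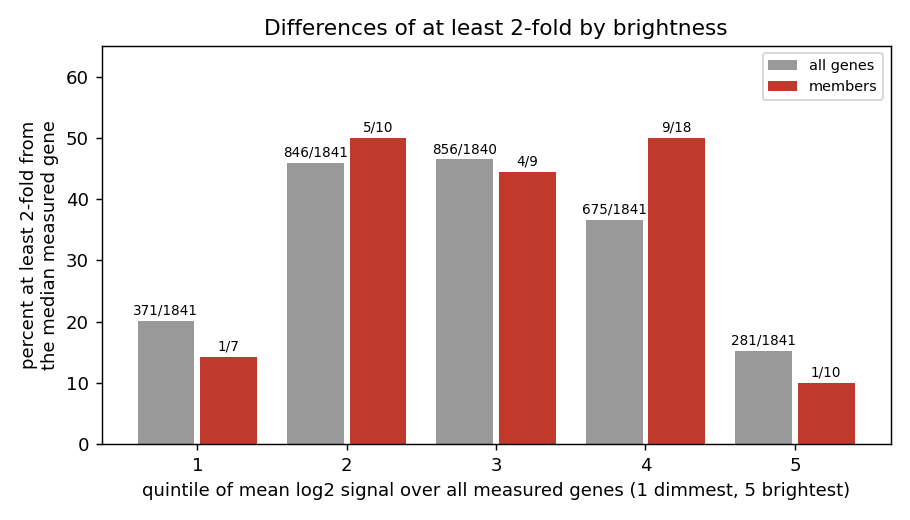
Percent of genes past 2-fold in either direction from the median gene, by quintile of mean log2 signal, for all measured genes (grey) and members (red); numbers over the bars are genes past 2-fold over genes in the quintile. Among the brightest genes 15.3% of all and 1 of 10 members passed, against 36.7% and 9 of 18 one quintile below.

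Probes of one member often differed. Of 14 members with at least 2 measured probes, 8 (57.1%) had all of them on one side of the median gene, against 62.5% of 1478 genes over the array. The median gap between a member's highest and lowest probe was 1.09, against 0.70 over all such genes. The gap passed 1 in 7 members, and in Eef1g, Eif3c and Eif5 such probes lay on opposite sides. The order of probes along the strand gave no common pattern: the probe nearest the 3′ end moved less than the one nearest the 5′ end in 7 of 14 members. Of the 7 members with a gap over 1, Eef1g, Eef2k, Eif3m, Eif3c and Eif5 moved most at the 5′ probe, whereas Eif2s3x and Eif6 moved most at the 3′ probe. Of the 20 members past 2-fold, 15 rest on 1 measured probe, and 5 have a dimmer signal under 50.

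**Figure D5:**
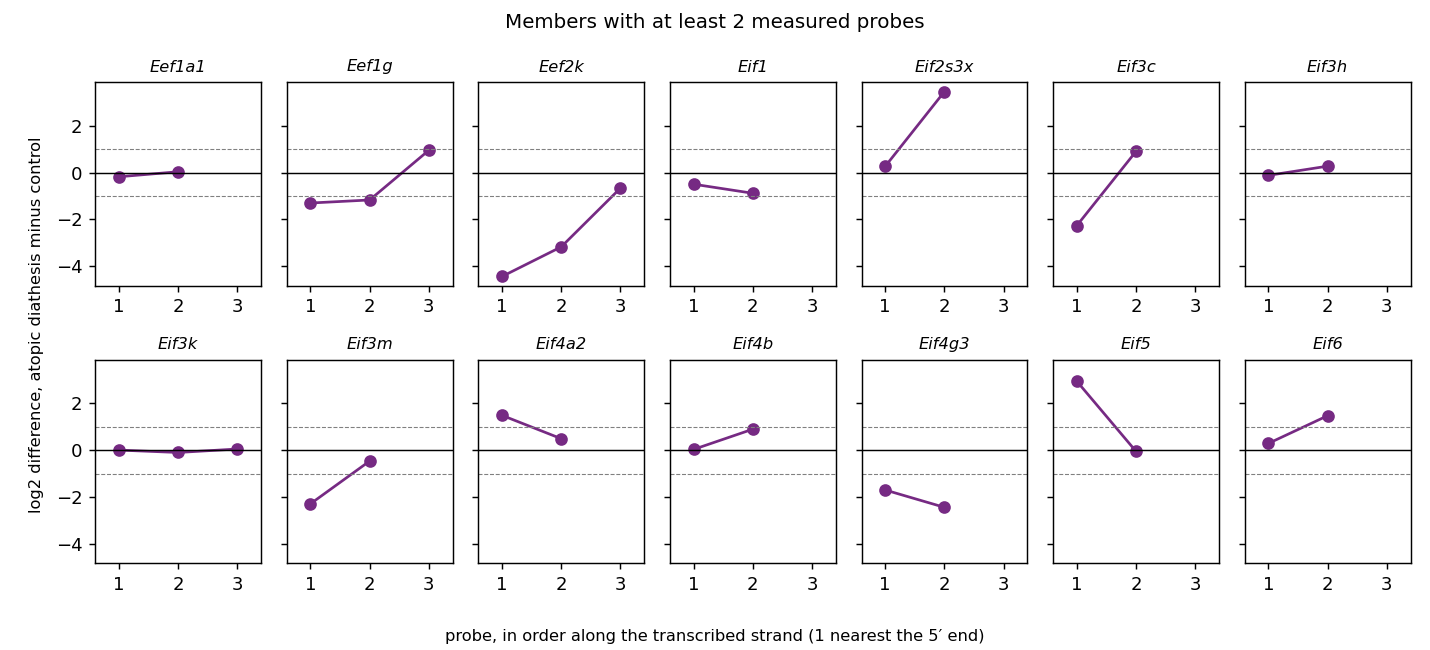
Log2 difference, atopic diathesis minus control, of each measured probe of the 14 members with at least 2, in order along the transcribed strand from the 5′ end; dashed lines mark 2-fold. Eif3k and Eef1a1 are flat, Eef2k climbs from -4.43 to -0.66, Eif2s3x from 0.26 to 3.45, and Eif5 descends from 2.94 to -0.06.

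Partners of the factors moved in both directions too. Of 16 initiation partners 11 were measured, 2 of them higher and 3 lower. Mcts1, which with Denr recycles and reloads small subunits, gave 25.7 in control and 143 in atopic diathesis (difference 2.51), while Denr itself gave 271 and 307 (0.21). Paip2, an inhibitor of poly(A)-binding protein, gave 226 and 972 (2.14). Larp1, which controls mRNAs of the translation machinery, gave 440.1 and 82.5 (-2.38). Pabpc4, a poly(A)-binding protein, gave 278 and 53.7 (-2.34), and Mknk2, a kinase of eIF4E, gave 8968 and 2092 (-2.07). Mknk2 was thus lower together with the measured probe of its substrate Eif4e, and Pabpc1, the main poly(A)-binding protein, gave 1707 and 1132 (-0.56). Gigyf2, a partner of the repressive cap-binding homologue, was seen in atopic diathesis only, at least 2.22-fold higher.

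The integrated stress response, the programme that follows eIF2 phosphorylation, moved in no one direction among its 12 listed genes. Of 8 measured, 1 was higher and 1 lower, with a median of -0.05. Atf4, its central factor, gave 1118 in control and 947 in atopic diathesis (difference -0.21), Ddit3 (CHOP) 126 and 133 (0.11), and Asns 57.9 and 33.2 (-0.77). The eIF2 phosphatase subunits differed: Ppp1r15b, the constitutive one, gave 1209 and 196 (-2.59), and Ppp1r15a, the inducible one (GADD34), gave 514 and 556 (0.14). Nupr1 gave 1244 and 4142 (1.77). Chac1, a glutathione-degrading target of Atf4, was seen in control only, at 311 and 4.20, at least 15.3-fold lower.

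Of 17 mitochondrial synthetases 3 were measured and 7 were at background on both arrays. Tars2 gave 132 in control and 27.6 in atopic diathesis (difference -2.22), and Aars2 (-0.75) and Hars2 (-0.92) lay within 2-fold below the median gene. Seen in control only were 4, among them Fars2, lower by at least 9.92-fold, and Ears2, lower by at least 2.62-fold. Yars2, one of 2 seen in atopic diathesis only, was at least 3.27-fold higher. None of 3 measured mitochondrial translation factors passed 2-fold, but the release factor Mtrf1 gave 1700 in control and 13.6 in atopic diathesis, at least 83.6-fold lower. Of 6 cytosolic release and recycling factors 2 were measured, both within 2-fold: Gspt1 (-0.03) and Abce1 (-0.63).

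Promoters from 250 bases before to 50 after a start site were at hand for 59 of the 85 members (74 promoters). The CARE letters TGATGNAA, searched on both strands, were in 3.97% of all 32851 promoters. They were in 5 of 12 synthetase promoters (41.7%), those of Aars, Gars, Iars, Tars and Yars, and in 2 of 62 factor promoters, those of Eef2k and Eif2s3x. The 5 measured holders printed above did not move together: Iars and Eif2s3x were higher, Gars and Eef2k lower, and Aars within 2-fold. The E-box CACGTG, a palindrome bound by Myc and Tfe3 among others, was in 18 of 74 member promoters (24.3%), against 7.15% of all. Eif4e and Eif5a, both lower, are shown as examples.
Eif4e, chr3:138527180-138527233, plus strand: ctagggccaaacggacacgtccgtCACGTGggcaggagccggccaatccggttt
Eif5a, chr11:69921431-69921484, minus strand: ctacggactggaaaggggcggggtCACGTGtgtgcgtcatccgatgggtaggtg
Among the 15 measured members with an E-box, 3 were higher, 4 lower and 8 within 2-fold, with a median of -0.26, beside 4 higher, 5 lower and 13 within among the 22 without. Neither motif holds the other. A match says only that the letters are there.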

How the data were processed

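Spinal cord microglia RNA of 1 control and 1 atopic diathesis sample was measured on 1-colour Agilent arrays. The deposited scanner files hold fluorescence intensity per spot, background-subtracted by Agilent Feature Extraction (10.7.1.1 per the file headers, 9.5.1.1 per the submitters' processing notes). The deposited series table holds an intensity per probe on a linear scale. Its sorted values were equal between arrays within rounding, as quantile normalization makes them. Its direction and order are known. The scaling step is not stated, but the median measured gene lay at -0.17 there and also after quantile normalization of the scanner values.

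From the files, control spots and outlier-marked spots were left out, spots of a probe were averaged, log2 was taken, and a gene's value was the mean over probes well above background on both arrays (over 50% of spots). Differences were centred on the median measured gene. No pseudocount was used. Current symbols and promoters came from RefSeq tables of GRCm38.p6, used for names and promoter sequences, and all 85 members matched by accession. Named with signals were members past 2-fold, members with a bound, the 2 brightest of each role and members with opposed probes; others were named after their values were seen, as every member is accounted for. Not every gene in the list counts is reported here by name. The members and lists were chosen with earlier results of these data known. Python 3.11.15, pandas 2.3.3 and limma 3.58.1 (normexp, offset 50) were used. The centring was run on simulated data with equal numbers of rises and falls in a small part of the genes. That setting is unlike these arrays, so it could not test the choice of scaling. With 1 array per group no test was possible, and the number of arrays limits the precision. Alternatives were other scalings, background corrections, filters, probe rules and gene names, and leaving out the Argonautes.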

Additional observations from a re-analysis of the deposited data

How the results depend on the processing

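The 14 other settings, and leaving out the Argonautes, which was chosen after seeing the data, changed the count of 8 higher members most through the filter on dim probes and that of 12 lower members most through scaling. Scaling to the 75th percentile of all probes, which moved the median measured gene to -0.50, gave 4 higher, 21 lower and a median of -0.60. Among all called genes 28.3% were then higher, against 52.6% when centred on the median gene, 42.0% after quantile normalization and 42.0% in the deposited series table. Normexp correction left 4 higher, uncorrected signals 1. Of all 9204 measured genes 1007 and 900 were higher in these, against 1594 in the main setting. Probes above background on at least 1 array gave 21 higher of 69 members with a value, with a median of 0.16. No filter gave 26 higher of 85, with a median of 0.26, whereas 54 members had a value in the main setting. Of all called genes 57.1% and 64.6% were higher in these settings. In these, Eif2s2 turned to 0.66 and 0.77 and Eif4e to 0.34 and 0.30. By construction their probes that are dim in control then entered the mean. Brighter probes only, which left 33 members, gave 2 higher and 7 lower, with Eif5 at -0.021, and the brightest probe per gene put Eif5 at -0.058.

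Of the 20 members past 2-fold, 5 stayed past it the same way under every alternative that gave them a value (Eef2k, Eif2c4, Eif3g, Eif4a3 and Eif5a), and 17 kept their sign. Over single members, 180 of 732 values under the 14 settings moved by more than the spot SD. No replicate was left out. No paired analysis was possible because each group holds 1 array. Signals near background limit the dim members, and the cause of the other changes was not tested.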
